A study of Saccharomyces cerevisiae with 10 samples.

Results

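The comparison described here set yeast 60 min after a shift to lower osmolarity against the same strains before the shift, at 0 min. It used 4 of the 10 arrays of the series, chosen by the strain and time in their labels, and all 5822 genes of the table. The groups were *Saccharomyces cerevisiae* wild type at 0 min, wild type at 60 min, a strain labelled delPPT1 at 0 min and the same strain at 60 min, with 1 array each. PPT1 encodes a serine/threonine phosphatase that acts on the chaperone Hsp90, and the strain's name stands for its deletion. Total RNA of each sample was hybridised on a 2-colour array together with a reference. Other arrays of the series, at 7, 16 and 30 min in the wild type and at 7, 15 and 30 min in the labelled delPPT1 strain, entered the fit as well and served to place the 60 min state in time. The sources used here do not give the strain background, the medium, the size of the osmotic shift or the make-up of the reference. Separate cultures within a strain are not named in the labels. The p-values rest on how far the 2 strains departed from a shared time course. With 1 array per strain and time, that spread mixes strain differences in response, differences between cultures and technical noise, which cannot be told apart.

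A yeast cell in a medium of high osmolarity holds water by making glycerol, through the kinase Hog1 of the high osmolarity glycerol (HOG) pathway, and by keeping the glycerol channel Fps1 closed. When the medium is diluted, water enters, the plasma membrane and cell wall are stretched, glycerol leaves through Fps1, calcium enters the cytosol and activates the phosphatase calcineurin, and the cell wall integrity cascade that ends in the MAP kinase Slt2 is switched on for a time. The steady state that follows is one in which less glycerol is needed.

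Each value is a centred log ratio to the reference: the array's median was subtracted, and the log was taken as base 2. The ratio was read as sample over reference, which is likely, since the labels name the second channel the reference, but it is not stated. With the ratio turned, every direction below would turn with it, and a natural log would enlarge every value by 1 factor. A change is the fitted 60 min minus 0 min difference, which is the mean of the 2 strain differences where no value was missing, with its standard error (SE) from limma over all 10 arrays. A gene passed the test, and is said to have risen or fallen, at a limma adjusted p under 0.05 after Benjamini-Hochberg adjustment over all genes. No unshifted culture was followed, so the shift, the time elapsed and handling cannot be told apart. In a population, a change in RNA per cell and a change in the share of cells in a given state cannot be told apart either.

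Between 5440 and 5807 genes had a value on an array, and 5651 genes had a value on all 4 arrays of the comparison. The centred ratios spread more widely at 0 min, with a standard deviation across genes of 0.52 in the wild type and 0.50 in the labelled delPPT1 strain, than at 60 min, with 0.39 and 0.35. At 0 min 311 wild type genes and 271 genes of the labelled delPPT1 strain were more than 2-fold from the reference. By 60 min these counts were 104 and 80, the lowest of each strain's 5 arrays. The plot of genes far from the reference shows these counts, with 1 array behind each. By the standard deviation across genes the labelled delPPT1 array at 15 min (0.35) was as close to the reference as that at 60 min. On the wild type 0 min array 43.02% of the deposited values had 4 decimals, against 0 on every other array. All 2498 of these values ended in 5. Whether they average more than 1 measurement was not tested, and the fit weighted this array like the others.

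**Figure D1:**
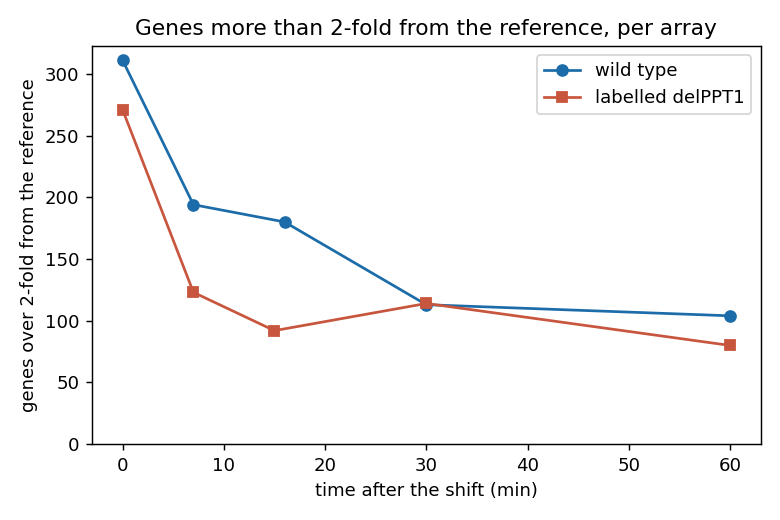
Number of genes whose centred log ratio was more than 2-fold from the reference (vertical axis) on each of the 10 arrays, against time after the shift in min (horizontal axis), with 1 point per array and 1 line per strain. Both lines start highest, at 311 and 271 genes, and end lowest, at 104 and 80 genes.

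PPT1 was read first, because its level bears on the strain label. Its centred log2 ratio was -0.50 in the wild type and 0.10 in the labelled delPPT1 strain at 0 min, and -0.44 and -0.55 at 60 min. PPT1 was therefore not lower on the 0 min array labelled delPPT1, and at 60 min the 2 arrays lay close together. The sources used here do not give the stretch of the gene on the spot, and the strain is called the labelled delPPT1 strain throughout. The fitted change of PPT1 from 0 to 60 min was -0.30 ± 0.21 (SE, limma adjusted p = 0.402).

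At 60 min the transcriptome differed from that before the shift mainly by genes that were lower. Of 5822 genes, 719 passed (12.3%), of which 231 were higher (3.97%) and 488 lower (8.38%), while 1613 had an unadjusted p under 0.05. These shares are the background for every list count below. The median change over all genes was -0.02. Among the genes that passed, 174 were lower and 22 higher by more than 2-fold, and the median size was 0.84 for falls and 0.63 for rises. RCK1, a kinase known from the response to oxidative stress, fell by 4.92 on the log2 scale, the most of any gene, whereas the largest rise was that of FRE1, a cell surface ferric reductase, at 1.78. The balance of directions depended on the normalization. With median centring alone 32.1% of the genes that passed were higher. The share was 49.9% (387 of 775) without centring and 45.0% (203 of 451) after quantile normalization, which gives every array the same distribution. With centring and scaling to the median absolute deviation the share was 30.9% (147 of 476), near that of centring alone. Counts also shrank when 1 array was left out, to 342 without the wild type 0 min array, 273 without the labelled delPPT1 0 min array, 425 without the wild type 60 min array and 318 without the labelled delPPT1 60 min array.

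Taken strain by strain, with no test, 175 genes were at least 2-fold lower at 60 min in the wild type and 222 in the labelled delPPT1 strain, with 127 in both (2.25% of the 5651 genes on all 4 arrays). At least 2-fold higher were 27 genes in the wild type and 37 in the labelled delPPT1 strain, with 14 in both (0.248%). Across the 5651 genes the 2 strain differences correlated with r = 0.742, which is a description across genes that share a reference and an array design. They had the same sign for 3970 genes (70.3%). In the scatter of the 2 strain differences the points that passed lie along the line of equal change. The test favours genes whose 2 differences are alike, so this is no evidence that the strains agreed.

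**Figure D2:**
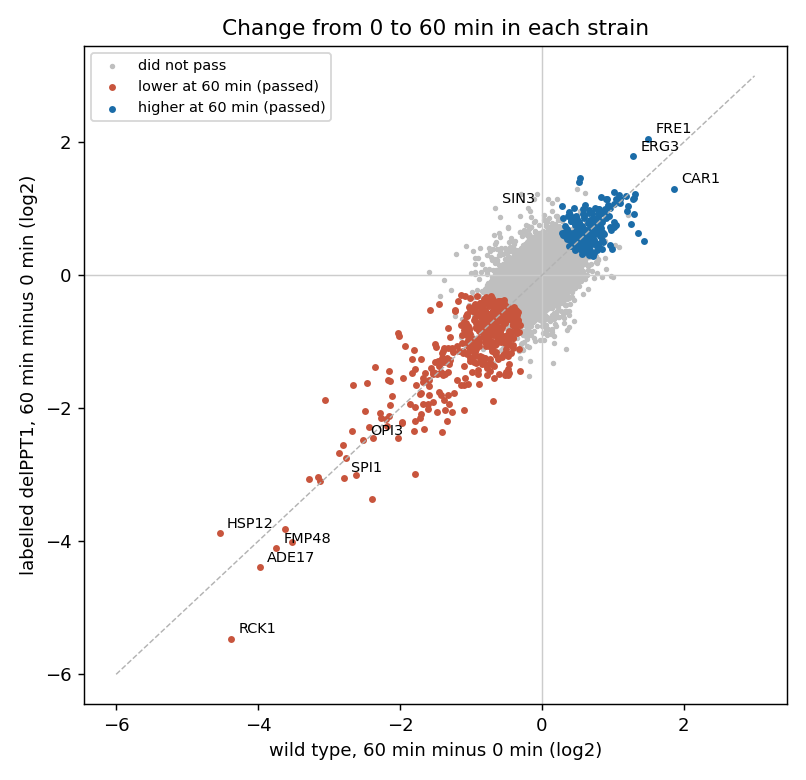
Change from 0 to 60 min in the wild type (horizontal axis, log2) against that in the labelled delPPT1 strain (vertical axis, log2), 1 point per gene with a value on all 4 arrays. Genes that passed are coloured by direction, and grey genes did not pass. The lower left arm reaches past -4 on both axes while no gene exceeds 2 on both axes in the upper right.

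The 15 largest falls with a value on all 4 arrays held genes of stress defence, purine and folate metabolism and the cell wall. RCK1 stood at 3.86 in the wild type and 5.14 in the labelled delPPT1 strain at 0 min and at -0.51 and -0.33 at 60 min and fell by 4.92 ± 0.22 (SE, limma adjusted p = 1.64e-06), or 30.2-fold. HSP12, a small membrane-stabilising heat shock protein, went from 4.39 and 3.40 to -0.15 and -0.47 and fell by 4.21 ± 0.18 (18.5-fold). ADE17, an enzyme of the last steps of purine synthesis, went from 2.53 and 3.42 to -1.45 and -0.96 and fell by 4.18 ± 0.19 (18.2-fold). In all 3 genes both 0 min arrays were far above both 60 min arrays, by a distance many times the SE. Further members were FMP48, a mitochondrial protein of poorly known function (-3.92 ± 0.32), PRM7, a pheromone-regulated membrane protein (-3.77 ± 0.25), and YDL038C (-3.71 ± 0.16). YDL038C and PRM7 adjoin each other on the chromosome and fell together, so the 2 spots need not report separate transcripts. YPL088W (-3.17 ± 0.20), YOR338W (-3.11 ± 0.27), the adenine gene ADE2 (-3.10 ± 0.17), the wall protein gene SPI1 (-2.91 ± 0.19), the sodium-phosphate symporter PHO89 (-2.88 ± 0.21), the cytosolic serine hydroxymethyltransferase SHM2 (-2.81 ± 0.17), the wall protein gene NCW2 (-2.76 ± 0.13), the sulfide-assimilating enzyme MET17 (-2.75 ± 0.44) and the folate enzyme MTD1 (-2.68 ± 0.17) completed the set. Each of the 15 passed whichever 1 of the 4 arrays was left out, except MET17, which did not pass without the wild type 0 min array (limma adjusted p = 0.0562).

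The 15 largest rises were smaller and of other kinds. FRE1 went from -0.79 in the wild type and -1.79 in the labelled delPPT1 strain at 0 min to 0.71 and 0.27, a rise of 1.78 ± 0.17 (SE, limma adjusted p = 0.000155), or 3.43-fold. CAR1, arginase, went from -0.83 and -0.97 to 1.04 and 0.34, a rise of 1.58 ± 0.15. ERG3, the C-5 sterol desaturase of ergosterol synthesis, went from -0.96 and -1.09 to 0.33 and 0.70, a rise of 1.54 ± 0.15 (2.91-fold). In these 3 genes the 0 min arrays lay below the reference and the 60 min arrays above it. The set also held the mitotic cyclin CLB2 (1.23 ± 0.13), the mitotic kinase CDC5 (1.09 ± 0.14), the forkhead factor FKH1 (1.13 ± 0.12), the G1/S gene TOS4 (1.14 ± 0.13), the aconitase ACO1 (1.15 ± 0.14), the multicopper ferroxidase FET3 (1.11 ± 0.17), the sterol desaturase ERG5 (1.10 ± 0.13) and the mRNA 3′ end factor HRP1 (1.10 ± 0.13). SIS1, an Hsp40 co-chaperone (1.27 ± 0.19), the transcription coactivator MBF1 (1.21 ± 0.13), TMA10 (1.19 ± 0.18) and YDR112W (1.13 ± 0.12) made up the rest. All 15 passed whichever 1 of the 4 arrays was left out, but SIS1 and MBF1 did not pass in a fit with no strain term.

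**Figure D3:**
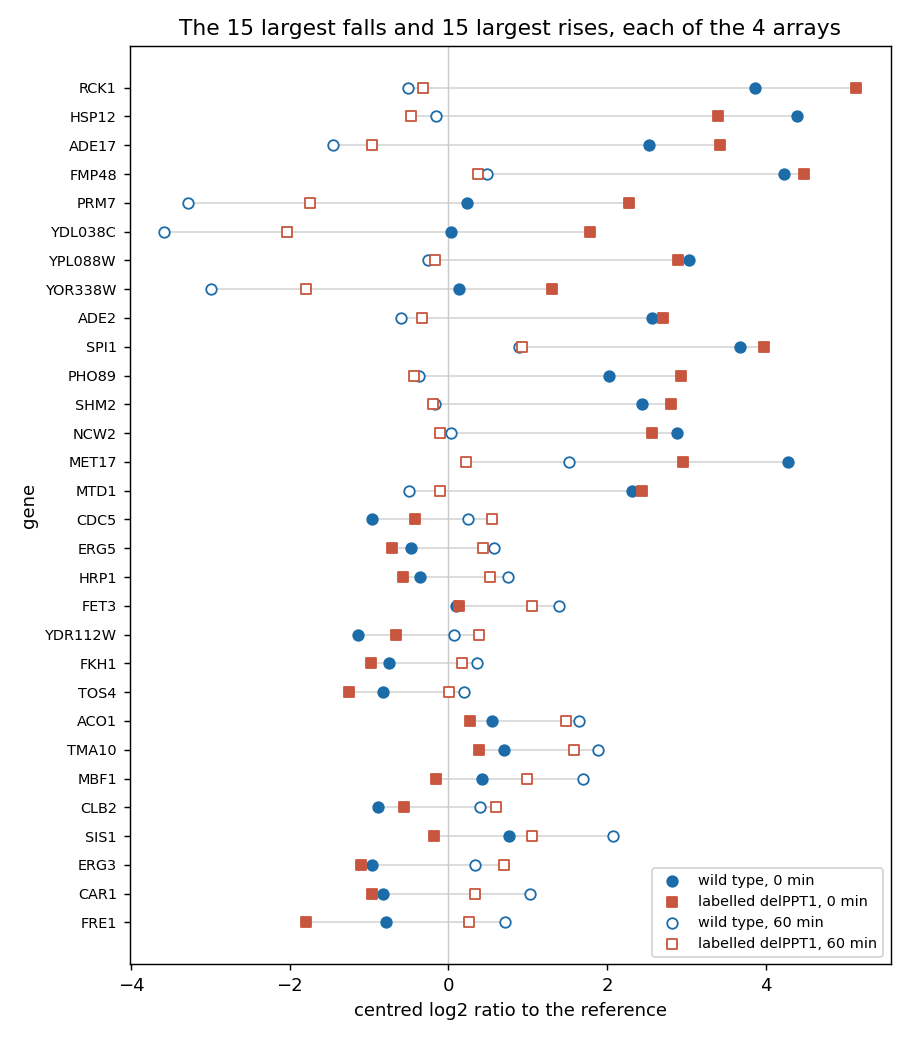
Centred log2 ratio to the reference (horizontal axis) on each of the 4 arrays for the 15 largest falls and 15 largest rises (vertical axis, 1 gene per line), with filled symbols for 0 min and open symbols for 60 min, circles for the wild type and squares for the labelled delPPT1 strain. For every gene both open symbols lie on the same side of both filled ones. The genes were picked as passing with the same sign in both strains, which favours that pattern. The largest change is -4.92 among the falls against 1.78 among the rises.

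RNA of genes for glycerol synthesis was lower at 60 min. All 4 genes measured on this list fell, with a median change of -1.22 against -0.02 over all genes. GPP2, a glycerol-3-phosphatase that yields glycerol, stood at 2.09 in the wild type and 1.79 in the labelled delPPT1 strain at 0 min and at -0.19 and -0.28 at 60 min and fell by 2.18 ± 0.14 (SE, limma adjusted p = 1.36e-05). GPD2, the second glycerol-3-phosphate dehydrogenase, fell by 1.37 ± 0.20 and GPP1 by 1.06 ± 0.26. GPP1 has no value on the labelled delPPT1 60 min array and did not pass without the labelled delPPT1 0 min array. GPD1, the osmostress-induced dehydrogenase that sets the rate of the pathway, went from 2.16 and 1.81 to 1.60 and 1.03. It fell by 0.67 ± 0.17 (limma adjusted p = 0.0346), but the change did not pass whichever 1 of the 4 arrays was left out and turned to 0.29 after quantile normalization. GPD1 thus remained well above the reference at 60 min, whereas GPP2 was below it. Without the wild type 0 min, labelled delPPT1 0 min, wild type 60 min and labelled delPPT1 60 min arrays in turn, 3, 2, 2 and 3 of the 4 genes passed, and 1 did after quantile normalization.

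Genes for other steps of glycerol handling moved less. Of 6 genes for glycerol breakdown 3 fell (8.38% of all genes did). DAK1, dihydroxyacetone kinase, led them, from 1.39 and 1.31 to 0.41 and -0.14 (-1.22 ± 0.17). GCY1 (-0.58 ± 0.12) and YPR1 (-0.49 ± 0.12), which encode aldo-keto reductases, also passed, but neither did whichever 1 of the 4 arrays was left out. Of 5 channels and their regulators 2 fell. One was ASK10, a regulator of the Fps1 channel (-0.97 ± 0.14), and the other was the aquaporin AQY1 (-0.63 ± 0.13), which passed without the wild type 0 min array but not without any other of the 4 arrays. FPS1 itself changed by 0.08 ± 0.15 and did not pass. Of 20 genes of HOG signalling 2 passed, in opposite directions, a share near the 12.3% over all genes. PTP2, a tyrosine phosphatase that acts on Hog1, went from 1.30 and 1.68 to -0.09 and 0.20 and fell by 1.44 ± 0.16 (SE, limma adjusted p = 0.000311), and the membrane sensor SHO1 rose by 0.63 ± 0.14, a call that held only with both 0 min arrays and the wild type 60 min array in the fit. HOG1 changed by 0.19 ± 0.14 and did not pass. The values of FPS1 and HOG1 were chosen for printing after they were seen.

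Stress protein genes were lower at 60 min. On a list called small stress proteins, which also holds HSP104 and HSP150, 13 of 13 measured genes fell (8.38% of all genes did). The median was -1.09 and the range ran from -4.21 to -0.68. After HSP12 and SPI1, the largest falls were those of HSP26, a small heat shock chaperone (-1.89 ± 0.16), DDR48, a stress-induced protein first known from DNA damage (-1.89 ± 0.15), and GRE2, a methylglyoxal reductase (-1.77 ± 0.13). HSP26 stood at 1.63 in the wild type and 2.29 in the labelled delPPT1 strain at 0 min and at -0.16 and 0.31 at 60 min, with no overlap between the times. Leaving out the wild type 0 min, labelled delPPT1 0 min, wild type 60 min and labelled delPPT1 60 min arrays in turn left 11, 8, 10 and 9 of the 13 past the test, and quantile normalization left 8. Of 27 genes of oxidative defence 6 fell and 1 rose. The peroxiredoxin TSA2 fell from 1.68 and 2.15 to 0.28 and -0.21 (-1.88 ± 0.27) and the glutaredoxin GRX1 fell by 1.02 ± 0.15. The cytosolic catalase CTT1 fell by 1.14 ± 0.23, without passing when either labelled delPPT1 array was left out, while the peroxisomal catalase CTA1 rose by 0.45 ± 0.12 and did not pass whichever 1 of the 4 arrays was left out. Storage carbohydrate genes moved less: 2 of 7 trehalose genes fell and 1 of 11 glycogen genes rose (3.97% of all genes rose). The trehalose phosphatase TPS2 fell by 0.82 ± 0.18, not past the test without the wild type 0 min array or either 60 min array, and turned to 0.13 after quantile normalization.

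Some genes known as targets of calcineurin were lower at 60 min than before the shift. On a list of calcineurin targets and yapsins 9 of 17 genes fell and 0 rose, with a median of -0.59. CMK2, a calmodulin-dependent kinase, stood at 2.81 in the wild type and 2.43 in the labelled delPPT1 strain at 0 min and at 0.32 and 0.40 at 60 min and fell by 2.27 ± 0.14 (SE, limma adjusted p = 1.1e-05). PHO89 went from 2.02 and 2.94 to -0.37 and -0.43. YPS1 (-1.74 ± 0.13) and YPS3 (-1.44 ± 0.13), which encode yapsins, aspartyl proteases of the cell surface, fell with CHS1, a chitin synthase (-1.48 ± 0.18), from well above the reference to near it. CNA1, CMP2 and CNB1, the calcineurin subunits, and CRZ1, its transcription factor, did not pass. The members that passed without each of the 4 arrays in turn numbered 7, 6, 7 and 6, in the order used above.

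SLT2, the MAP kinase of the cell wall integrity cascade, went from 2.22 in the wild type and 2.50 in the labelled delPPT1 strain to 0.04 and 0.23 (-2.22 ± 0.20, limma adjusted p = 0.00016). RLM1, the transcription factor it activates, went from 1.19 and 0.86 to -0.22 and -0.38 (-1.33 ± 0.13). With these 2 genes included, 4 of the 20 sensors and cascade genes fell and 3 rose (8.38% and 3.97% of all genes), with a median of 0.08. The sensors MTL1 and MID2 fell by 0.65 ± 0.18 and 0.53 ± 0.14, while WSC2 (0.46 ± 0.13), the kinase MKK2 (0.53 ± 0.15) and the factor SWI6 (0.54 ± 0.13) rose. None of these 5 passed without the wild type 60 min array or the labelled delPPT1 60 min array.

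Of 25 wall proteins of the PIR and GPI-anchored classes, 12 fell and 2 rose, with a median of -0.47. NCW2 went from 2.88 in the wild type and 2.57 in the labelled delPPT1 strain at 0 min to 0.03 and -0.10, a 6.78-fold fall, and PST1 fell by 1.45 ± 0.12. CWP1, an abundant wall mannoprotein, went from 3.20 and 3.58 to 2.06 and 1.93, so that it stayed far above the reference. It fell by 1.40 ± 0.18 (limma adjusted p = 0.000955), a change that turned to 0.34 after quantile normalization. TIR1 and TIR2, mannoproteins known from cold and anaerobic growth, went the other way, by 0.99 ± 0.16 and 0.86 ± 0.18, although TIR2 did not pass whichever 1 of the 4 arrays was left out. In the order used above, 9, 7, 9 and 9 wall proteins passed as lower without 1 array, and 5 after quantile normalization. Among 30 glucan and chitin genes 5 fell and 2 rose (8.38% and 3.97% of all genes). SKT5, an activator of chitin synthase, fell by 0.92 ± 0.16 and GSC2, the inducible glucan synthase, by 0.85 ± 0.21, whereas CHS2, the chitin synthase of the division septum, rose by 0.79 ± 0.13. GSC2 did not pass whichever 1 of the 4 arrays was left out, SKT5 without the labelled delPPT1 0 min or wild type 60 min array, and CHS2 without the labelled delPPT1 0 min array. Several genes stand on more than 1 list, among them SPI1, HSP150, YPS3, CHS1, GSC2, PHO89, ADE3, MUP3, SWI6 and CHS2.

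**Figure D4:**
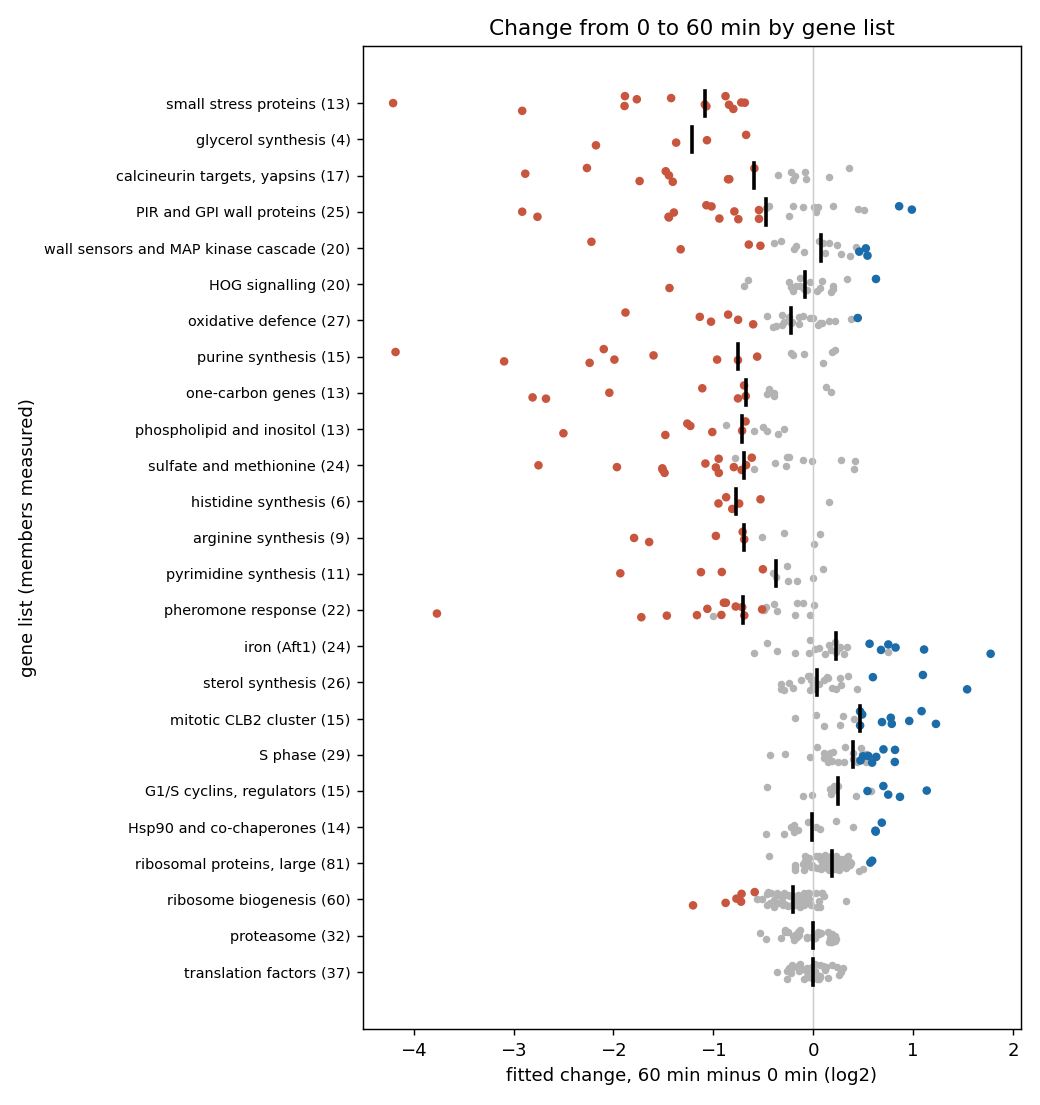
Fitted change from 0 to 60 min (horizontal axis, log2) of each measured member of 25 gene lists (vertical axis, members measured in parentheses). Coloured points passed, grey points did not, and the black bar is the list's median. The small stress protein list lies wholly below 0, from -4.21 to -0.68, and the mitotic CLB2 cluster has 9 coloured points above 0 and 0 below.

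Many purine synthesis genes were lower at 60 min. On the purine list 9 of 15 genes fell and 0 rose, with a median of -0.75. ADE17 and ADE2 are given above. ADE1 fell from 1.53 in the wild type and 2.26 in the labelled delPPT1 strain to -0.49 and -0.19 (-2.24 ± 0.19), and ADE13, adenylosuccinate lyase, from 1.28 and 1.87 to -0.69 and -0.35 (-2.10 ± 0.13). ADE4, the first enzyme of the pathway, fell by 1.99 ± 0.17. ADE12, which takes IMP toward AMP, fell by 1.60 ± 0.13, and ADE57, a bifunctional enzyme that the list missed under its spelling in the table, fell by 1.56 ± 0.13. The genes that take IMP toward GMP did not pass: IMD2 changed by -0.22 ± 0.16, IMD3 by -0.20 ± 0.13, IMD4 by 0.22 ± 0.13 and GUA1 by -0.09 ± 0.12. ADE16, which encodes the same activity as ADE17, changed by 0.19 ± 0.13 and did not pass. ADE12, ADE57, ADE16, the IMD genes and GUA1 were picked for printing after their values were seen. Without 1 of the 4 arrays in the order used above, 7, 6, 7 and 7 of the 15 genes passed.

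Several genes of folate-linked carbon transfer, which feeds purine and methionine synthesis, were also lower at 60 min. Of 13 genes 7 fell and 0 rose, with a median of -0.68. SHM2 stood at 2.45 in the wild type and 2.81 in the labelled delPPT1 strain at 0 min and at -0.17 and -0.20 at 60 min, and MTD1 at 2.31 and 2.44, then at -0.49 and -0.11. GCV1, a subunit of glycine decarboxylase, fell by 2.04 ± 0.21. GCV2, another subunit, fell by 1.11 ± 0.27, not past the test without either labelled delPPT1 array or the wild type 60 min array. Without 1 array, 4, 3, 4 and 4 of the 13 passed.

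Phospholipid and inositol genes form a regulon in which the factors Ino2 and Ino4 activate and Opi1 represses when inositol is plentiful. Of 13 measured, 7 fell and 0 rose, and the fitted changes ran from -2.50 to -0.29. OPI3, which methylates phosphatidylethanolamine toward phosphatidylcholine, stood at 2.35 in the wild type and 2.30 in the labelled delPPT1 strain at 0 min and at -0.17 and -0.18 at 60 min and fell by 2.50 ± 0.13 (SE, limma adjusted p = 4.66e-06), or 5.66-fold. INO1, the inositol-3-phosphate synthase, went from 1.99 and 1.35 to 0.42 and -0.04 (-1.48 ± 0.18). The phosphatidylserine synthase CHO1 fell by 1.26 ± 0.13 and the inositol transporter ITR1 by 1.23 ± 0.14. CKI1, choline kinase, fell by 1.01 ± 0.17, not past the test without the wild type 0 min array. Without 1 array, 4, 5, 6 and 5 of the 13 passed.

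Genes of amino acid synthesis were lower on some branches. For sulfate assimilation and methionine 13 of 24 genes fell and 0 rose (median -0.69). MET17 had the least even values, at 4.28 in the wild type and 2.96 in the labelled delPPT1 strain at 0 min and at 1.52 and 0.22 at 60 min. MET6, methionine synthase, fell by 1.97 ± 0.23 and SAM2, an S-adenosylmethionine synthetase, by 1.49 ± 0.18. The count was 4 without the wild type 0 min array, 6 without the labelled delPPT1 0 min array and 8 without either 60 min array. Of 6 histidine genes 5 fell (median -0.78), with HIS7 at -0.95 ± 0.17 (not past the test without the wild type 0 min array) and HIS5 at -0.81 ± 0.13, and 1, 2, 2 and 4 of them passed without 1 array. Of 9 arginine genes 5 fell (median -0.69), led by ARG1, argininosuccinate synthase (-1.79 ± 0.27), and ARG3, ornithine carbamoyltransferase (-1.64 ± 0.18), with 3, 3, 4 and 3 without 1 array. Of 6 genes of arginine and proline breakdown 2 rose and 1 fell: CAR1 rose as described, CAR2, ornithine transaminase, rose by 1.05 ± 0.13 from -0.04 and -0.60 to 0.98 and 0.47, and PUT1, the proline oxidase, fell by 0.86 ± 0.13. In a fit with no strain term CAR2 did not pass. On the branched-chain list 2 of 12 fell (8.38% of all genes did). On the lysine and aromatic list 2 of 22 fell and 1 rose, close to the shares over all genes. LEU2, on the branched-chain list, fell by 2.16 ± 0.37, not past the test without the wild type 0 min array, and it is a common auxotrophic marker in laboratory strains, whose state in these strains the sources used here do not give.

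Genes of the pheromone response were lower at 60 min, with 12 of 22 lower and 0 higher and a median of -0.70. This pathway shares the kinase Ste11 with the HOG pathway. PRM7 went from 0.24 in the wild type and 2.27 in the labelled delPPT1 strain at 0 min to -3.28 and -1.74 at 60 min, so the strains were far apart at both times while their changes were alike, at -3.52 and -4.01. PRM10 fell by 1.72 ± 0.20, KAR4, a transcription factor of mating, by 1.16 ± 0.15 and FIG1, a calcium-influx factor of mating, by 1.06 ± 0.16. PRM5 fell by 1.47 ± 0.28, not past the test without the wild type 60 min array. Without 1 array, 9, 6, 10 and 7 of the 22 passed. Of 7 a-cell markers 3 fell, AGA2 by 0.80 ± 0.14, BAR1 by 0.51 ± 0.14 and MFA1 by 0.44 ± 0.12. AGA2 did not pass without the labelled delPPT1 0 min array, BAR1 and MFA1 did not whichever 1 of the 4 arrays was left out, and none of the 3 passed after quantile normalization, where the median of the 7 turned from -0.36 to 0.20. Of 4 alpha-cell markers 0 passed in limma's test and 0 had an unadjusted p under 0.05, with changes from -0.26 to 0.19, and of 11 sporulation markers 1 fell.

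Several lists of cell division genes held rises. In the CLB2 cluster, genes of mitosis and cytokinesis, 9 of 15 rose and 0 fell, with a median of 0.47 (3.97% of all genes rose). CLB2 stood at -0.89 in the wild type and -0.56 in the labelled delPPT1 strain at 0 min and at 0.41 and 0.60 at 60 min, a rise of 1.23 ± 0.13 (SE, limma adjusted p = 0.0003). CDC5 went from -0.96 and -0.42 to 0.24 and 0.55. The bud site gene BUD4 rose by 0.96 ± 0.20, not past the test without either labelled delPPT1 array, and HST3, a histone deacetylase, by 0.78 ± 0.12. Counts without 1 array were 5, 3, 5 and 5 of 15. Of 15 G1/S cyclins and regulators 5 rose and 0 fell (median 0.25), among them TOS4, the S phase cyclin CLB5 (0.87 ± 0.14) and the G1 cyclin CLN1 (0.75 ± 0.14, not past the test without the labelled delPPT1 0 min or wild type 60 min array). Of 29 S phase genes 8 rose and 0 fell (median 0.40), with the cohesin subunit MCD1 at 0.82 ± 0.13, the checkpoint kinase RAD53 at 0.82 ± 0.23 and the replication clamp POL30 at 0.70 ± 0.14. The S phase count was 2, 1, 3 and 2 without 1 array. RAD53 did not pass whichever 1 of the 4 arrays was left out, nor POL30 without the labelled delPPT1 0 min or wild type 60 min array. Of 10 histone genes 2 rose, and 0 did so whichever 1 of the 4 arrays was left out. On the M/G1 list, genes expressed around the exit from mitosis, 2 of 13 rose and 2 fell (median -0.03). DSE1 (0.44 ± 0.12) and DSE3 (0.47 ± 0.13) rose, NIS1 (-0.60 ± 0.13) and PIR1 (-0.54 ± 0.15) fell, and none of the 4 genes passed whichever 1 of the 4 arrays was left out. The share of cells in each phase was not measured.

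Iron uptake genes, the targets of the iron-sensing factor Aft1, had 6 of 24 members higher and 0 lower (median 0.22). FET3 went from 0.09 in the wild type and 0.14 in the labelled delPPT1 strain to 1.40 and 1.06, and its partner permease FTR1 rose by 0.68 ± 0.15. SMF3, an iron transporter of the vacuole, rose by 0.82 ± 0.14 and FIT2, an iron-binding wall protein, by 0.75 ± 0.15. FRE1, FET3 and SMF3 passed whichever 1 of the 4 arrays was left out. FTR1 did not pass whichever 1 of the 4 arrays was left out, and FIT2 passed only without the labelled delPPT1 0 min array. Among copper genes the transporter CTR1 rose by 0.80 ± 0.14, without passing when either labelled delPPT1 array was left out, and FRE7 by 0.70 ± 0.13, without passing when any 1 of the 4 arrays was left out. The metallothionein copies CUP1-1 and CUP1-2 fell by 0.97 ± 0.15 (not past the test without the labelled delPPT1 0 min array) and 1.23 ± 0.19, and as near-identical genes they may share signal. The zinc transporter ZRT1 went from 0.80 and 1.63 to -0.80 and 0.05 (-1.58 ± 0.14). Of 26 sterol genes 3 rose, ERG3, ERG5 and ERG2 (0.60 ± 0.14), all of which act late in ergosterol synthesis, and 0 fell. ERG2 did not pass whichever 1 of the 4 arrays was left out.

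Genes of the TCA cycle and its side branches went both ways. ACO1 went from 0.55 in the wild type and 0.28 in the labelled delPPT1 strain to 1.64 and 1.48, and both subunits of isocitrate dehydrogenase rose, IDH1 by 0.84 ± 0.13 and IDH2 by 1.02 ± 0.14. MDH2, the cytosolic malate dehydrogenase of gluconeogenesis, fell by 1.56 ± 0.22, and PYC1, a pyruvate carboxylase, by 0.94 ± 0.20, the latter not past the test without either wild type array. Of the 20 genes on this list 3 rose and 5 fell (3.97% and 8.38% of all genes). Of 18 genes of lower glycolysis and fermentation 4 fell: PYK2, the second pyruvate kinase (-1.13 ± 0.17), TDH1 (-1.05 ± 0.14), ENO1 (-0.81 ± 0.19) and ENO2 (-0.47 ± 0.13). The enolase copies ENO1 and ENO2 are alike in sequence and may share signal. ENO1 did not pass without the wild type 0 min array or either labelled delPPT1 array. ENO2 did not pass whichever 1 of the 4 arrays was left out. In upper glycolysis 0 of 11 passed in limma's test, with 3 at an unadjusted p under 0.05 and changes from -0.47 to 0.48. In the pentose phosphate list 3 of 13 fell, with SOL4 (-2.09 ± 0.24) and NQM1 (-1.99 ± 0.33) far below the rest. These are paralogues of SOL3 and TAL1, the main enzymes of their steps. OLE1, the fatty acid desaturase, went from 0.90 and 1.24 to -1.45 and -0.15 and fell by 1.87 ± 0.27, but did not pass in a fit with no strain term.

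The Hsp90, Hsp40 and Hsp70 lists moved little as classes. HSP26 and HSP104, chaperones counted above on the small stress protein list, fell. Of 14 genes of Hsp90 and its co-chaperones, the chaperone on which Ppt1 acts, 3 rose and 0 fell, with a median of -0.01. HSP82 stood at 0.19 in the wild type and -0.16 in the labelled delPPT1 strain at 0 min and at 0.94 and 0.46 at 60 min. The rises were 0.69 ± 0.16 for HSP82, 0.63 ± 0.13 for HSC82 and 0.62 ± 0.14 for STI1, and the first 2 encode near-identical proteins and may share signal. In wild type and labelled delPPT1 order, the 0 min and 60 min levels of STI1 were 0.89, -0.02, 1.66 and 0.46, so the times overlapped across strains. None of the 3 passed in a fit with no strain term, and 0, 1, 1 and 1 passed without 1 array. Of 16 Hsp40 genes only SIS1 rose, and of 16 Hsp70 and Hsp110 genes 2 rose and 1 fell, the last being the stress-induced SSE2 (-1.05 ± 0.18), which did not pass without the labelled delPPT1 0 min array.

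Few genes of the translation machinery passed. Of 81 large subunit ribosomal protein genes 2 rose and 0 fell (median 0.19) and of 54 small subunit genes 1 rose and 0 fell (median 0.22). None of these 3 genes, RPL4A, RPL41A and RPS14B, passed without the labelled delPPT1 60 min or the wild type 60 min array, and many ribosomal proteins have near-identical copies that may share signal. Of 60 ribosome biogenesis genes 6 fell (median -0.20), which is near the 8.38% over all genes, with NSR1, a nucleolar protein, at -1.20 ± 0.22 (not past the test without the labelled delPPT1 0 min or wild type 60 min array). Without 1 array that count was 6, 0, 3 and 1. No gene passed among 31 RNA polymerase subunits, 37 translation factors and 32 proteasome genes in limma's test, where 4, 1 and 3 of them had an unadjusted p under 0.05, and their changes ran from -0.53 to 0.51. Of 55 mitochondrial ribosomal proteins 1 fell.

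Few genes passed between 30 and 60 min. Across genes the 60 min array correlated with that at 30 min at r = 0.760 in the wild type and 0.684 in the labelled delPPT1 strain. With the 0 min array r was 0.528 and 0.379. In the limma test of 60 against 30 min, 3 of 5817 genes passed (0.0516%), all lower at 60 min, and 573 had an unadjusted p under 0.05. The 95% interval of a gene's 60 min minus 30 min difference, before adjustment over genes, had a median half-width of 0.34. Passing after adjustment took more than that, and the 3 genes that passed fell by 1.30 or more. The low count therefore does not show that the 2 times were alike. HSP12 went in the wild type from 4.39 through 3.52, 2.21 and 1.76 to -0.15 over the 5 times, and in the labelled delPPT1 strain from 3.40 through 2.41, 1.36 and 1.01 to -0.47. Between 30 and 60 min it fell by 1.70 ± 0.18 (SE, limma adjusted p = 0.0084), and no later array follows it. URA1, dihydroorotate dehydrogenase of pyrimidine synthesis, fell by 1.59 ± 0.17 in this interval, and RIB4, lumazine synthase of riboflavin synthesis, by 1.30 ± 0.13. The count was 0 without either 30 min array, 5 without the wild type 60 min array, 1 without the labelled delPPT1 60 min array and 1 with no strain term.

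Some genes reached the 60 min level by a turn. URA1 stood at -0.49 in the wild type at 0 min, at 0.44, 0.53 and 0.15 at 7, 16 and 30 min and at -1.44 at 60 min. Its fitted changes from 0 min were 1.0045, 1.17, 0.47 and -1.12, above the start early and below it at the end. The dihydroorotase URA4 had the same course with changes of 0.72, 0.78, 0.25 and -0.50, the last of which did not pass whichever 1 of the 4 arrays was left out. Of the 11 pyrimidine genes 4 fell at 60 min and 0 rose, the other two being the uridine and uracil permeases FUI1 (-1.93 ± 0.16) and FUR4 (-0.92 ± 0.20, not past the test without either labelled delPPT1 array). MDH2 had changes of 0.97, 0.64, -0.72 and -1.56. DIP5, a permease for glutamate and aspartate, took the mirror course, with -0.95, -0.66, 0.10 and 1.005. GPD1 was lowest early, at -1.35 at 7 min, then -1.15, -1.17 and -0.67, while GPP2 went on falling, with -0.97, -1.98, -2.04 and -2.18. These changes share the 0 min arrays, so they are given side by side only.

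Against 0 min, 176 of 5821 genes passed at 7 min (3.02%) and 418 of 5818 at 15-16 min (7.18%). Of these, 37 genes had a fitted change under 0.3 in size at 60 min. CIT2, the peroxisomal citrate synthase, stood in the wild type at 1.59, -0.56, -0.02, 0.61 and 1.44 over the 5 times and in the labelled delPPT1 strain at 0.56, -0.26, -0.24, 0.81 and 1.28. It fell by 1.48 ± 0.26 at 7 min (limma adjusted p = 0.0158), and its 60 min change was 0.28 with a 95% interval from -0.31 to 0.87. FAA4, an acyl-CoA synthetase, had a change of -1.29 ± 0.21 at 15-16 min and of 0.15 at 60 min (interval -0.33 to 0.63). The other genes of this kind with the largest early change were ARO5 (-0.92), PDR12, the weak acid exporter (-0.81), NFG1 (-0.80), the a-factor exporter STE6 (0.78), RCH1 (-0.74) and ELO1, a fatty acid elongase (-0.72). The intervals at 60 min leave room for changes the test could not detect, so a return to the 0 min level is a description of these arrays.

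**Figure D5:**
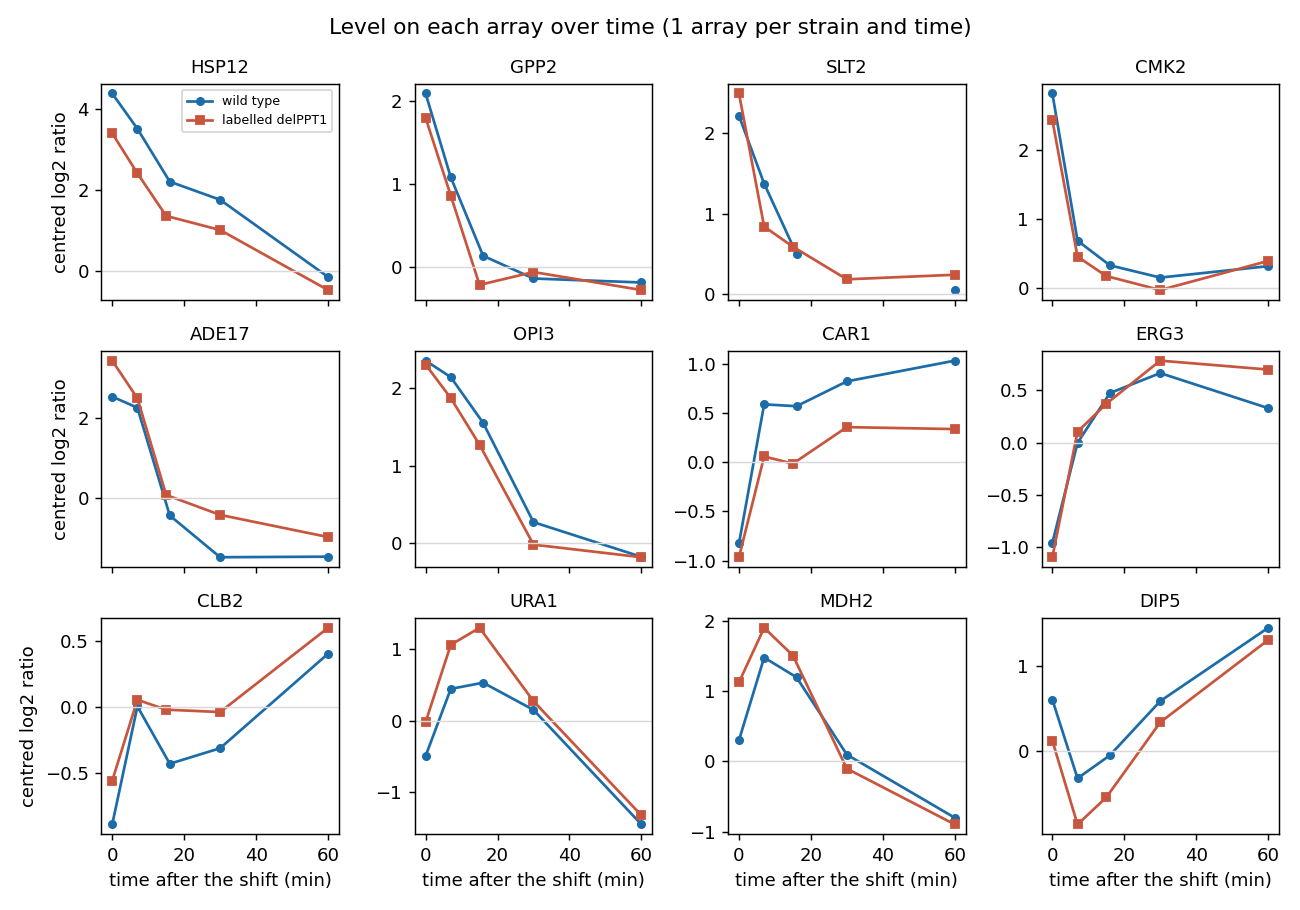
Centred log2 ratio (vertical axes) on each array against time after the shift in min (horizontal axes) for single genes, 1 panel per gene, 1 line per strain and 1 array per point. SLT2 has no wild type value at 30 min, where its line is broken. HSP12 falls to the last array, at -0.15 and -0.47, whereas URA1 is above its start at 7 min and below it at 60 min.

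The change from 0 to 60 min was compared between the strains, since the 2 strain differences serve as replicates. In limma's test of labelled delPPT1 change minus wild type change, 0 of 5651 genes passed (0%), and 241 had an unadjusted p under 0.05. With 1 array per strain and time, the median half-width of the 95% interval, before adjustment over genes, was 0.69. Passing after adjustment took a larger difference than that, and even the widest gap below did not pass. The lack of calls does not show that the strains acted alike. The widest gap upward was at SIN3, the scaffold of histone deacetylase complexes, which changed by -0.67 in the wild type and by 1.01 in the labelled delPPT1 strain, a difference of 1.68 ± 0.28 (95% interval 1.01 to 2.34, limma adjusted p = 0.999). HOS2, a histone deacetylase, changed by -0.29 and 1.23, a difference of 1.52 ± 0.27. EAF1 (1.64), the cyclin-like CLG1 (1.52) and FMT1 (1.4965) followed. In the opposite direction stood YNL058C (-1.48), YOL036W (-1.46), YEL1 (-1.33), CPP3 (-1.20) and SOM1, a mitochondrial protease subunit (-1.19). Of these 10 genes CPP3 and SOM1 fell over both strains, by 2.39 ± 0.34 and 1.29 ± 0.26. Genes of largest shared change also differed in size between strains without passing: RCK1 changed by -4.37 in the wild type and -5.46 in the labelled delPPT1 strain, and HSP12 by -4.54 and -3.88.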

How the data were processed

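Total RNA of 10 samples was measured on 2-colour arrays against a reference, per the labels. The authors deposited 1 log ratio per gene and array, taken here as log2. The base, dyes, scanner, platform, background correction, normalization and treatment of replicate spots were not given in the sources used here. Systematic names were matched to RefSeq symbols (assembly R64), where 5358 of 5822 locus tags matched. The median of each array was subtracted. Then limma 3.58.1 (R 4.3.3) fitted time (15 and 16 min as 1 level) and strain to all 10 arrays, with 4 residual and 5.8 prior degrees of freedom, dropping missing values (1.81%) gene by gene. A second fit gave the strain difference in the change, with 2 residual and 5.17 prior degrees of freedom. Adjusted p-values are Benjamini-Hochberg over all genes. The fits were also run on simulated data, with independent normal noise whose spread was taken from the fit itself. Such data assume the model, so they do not test whether it suits the real arrays. No set test was run, so a list is described by its counts and median beside all genes. No batch was examined, since slides and scan dates were not given in the sources used here. The number of arrays limits the precision.

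The comparison and the 62 gene lists were chosen with earlier results of these data known. Named genes were the 15 largest rises and falls that passed, with values on all 4 arrays and the same sign in both strains. Also named were up to 5 members with the largest change per list and those against its main direction. The genes that passed at 60 against 30 min, the 5 highest and 5 lowest strain differences, 8 early changes that ended under 0.3, and PPT1 completed the set. Promoter sequences were not used here, so a planned motif count was not run. Alternatives covered centring, scaling, missing values, the strain term, the variance model and the arrays included.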

Additional observations from a re-analysis of the deposited data

How the results depend on the processing

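Against 719 genes at 60 against 0 min, 476 passed (147 higher, 329 lower) with scaling to the median absolute deviation, 451 after quantile normalization and 392 (103 higher, 289 lower) with no strain term, and between 273 and 425 without 1 array. Without centring 775 passed, in the 4 arrays alone 588, with 30 and 60 min as 1 late state 868, with robust empirical Bayes 740 and among genes with all 10 values 699. Of 209 named genes that passed, 75 passed under each of the 12 alternatives that gave them a value. Quantile normalization reversed GPD1 (0.29), TPS2 (0.13), CWP1 (0.34), COX5B (0.057) and ALD6 (0.23), and the cause was not tested. At 60 against 30 min 1 gene passed with no strain term and between 0 and 5 without 1 array. The strain difference stayed at 0 calls under each alternative run. The fit pairs 0 and 60 min within each strain through its strain term, and the labels carry no replicate numbers for a further block. The array counts of single lists were added after the data were seen. Signal over background was not analysed here, and a planned motif count was not run.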

Other observations

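Genes that fell often lay next to one another. Of 466 lower genes with a known position, 117 (25.1%) had an adjacent gene on the chromosome that was lower too, against 807 of 5345 measured genes (15.1%). Among 219 higher genes 39 (17.8%) had a higher neighbour, against 7.35% of all. These are descriptions without a test, and spots that read overlapping transcripts were not set apart. Of the lower genes 5.15% and of all genes 4.88% were among the 10 genes nearest a chromosome end.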
